A study of Mus musculus with 6 samples.

Results

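The expressed lincRNA genes of the fetal mouse testis are the rows of the gene count table that carry the biotype lincRNA (long intergenic noncoding RNA) and reach a mean of at least 2 CPM (the count scaled to a common library total of 1e6) over all 6 libraries. This rule took 238 genes, which is 8.38% of the 2841 lincRNA rows in a table of 42747 rows. The members were chosen by their mean level over both groups, so their levels are given as a description. The difference between groups was not used by the rule, except that a gene low in 1 group could pass through the other: 13 members had a WT mean under 2 CPM and 14 had a cKO mean under 2 CPM. Just outside the threshold stood Gm26660, 2210406O10Rik and Gm10419 (each 1.96 CPM), and just inside it Miat (2.03 CPM), Gm43270 (2.05 CPM) and A530083I20Rik (2.05 CPM).

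The libraries hold polyadenylated RNA of testes of E16.5 mouse fetuses, from 3 mice labelled cKO and 3 labelled WT. The series title places CK1α, the kinase encoded by Csnk1a1, in Sertoli cells, and cKO was read as its conditional knockout. The sources used here do not give the Cre driver, the alleles, the strain or the genotype of the WT mice beyond that label. All 6 samples are whole organs, so each value mixes Sertoli cells with germ, Leydig, peritubular, vascular and blood cells.

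Long intergenic noncoding RNAs are transcribed by RNA polymerase II from stretches between protein-coding genes, are mostly spliced and polyadenylated, and hold no long reading frame. Some act in the nucleus on chromatin or nuclear bodies, some are hosts from which microRNAs or small nucleolar RNAs are cut, and for others transcription of the locus itself is thought to matter for a nearby gene. The testis is known for an unusually broad repertoire of such transcripts, much of it in germ cells after birth.

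Gene counts summed to 15092619 to 17431546 per library. Csnk1a1 itself had 398, 390 and 377 CPM in the cKO libraries and 384, 389 and 350 CPM in the WT libraries (edgeR adjusted p = 0.798, log2 fold change 0.08, SE 0.117), and since the deleted part is not given here, this count does not check the labels. The 4 Sertoli markers summed to 347 to 579 CPM in cKO against 1128 to 1538 CPM in WT, with Amh, Sox9 and Dhh called lower. Wt1, the other marker of that list, was not called and went the other way, with 185 to 219 CPM in cKO, above the 165 to 184 CPM of WT. The 4 Leydig markers summed to 3205 to 5081 CPM in cKO against 2871 to 3435 CPM in WT and the 4 germ cell markers to 193 to 370 CPM in cKO against 260 to 420 CPM in WT. Of 2 ovary markers Foxl2 was called higher in cKO, and of 2 matched erythroid markers Hba-a1 was. In RNA of a whole organ, fewer cells of a type and less RNA per cell cannot be told apart. Nothing in the labels says whether the mice of a group shared a litter, and p-values measure the spread between these 6 samples.

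The lincRNA genes together held a small share of the counts. Their share was 0.630%, 0.502% and 0.646% in cKO libraries 1, 2 and 3 and 0.530%, 0.538% and 0.538% in the WT libraries. The 3 WT libraries lay close together, and cKO libraries lay on both sides of them. Of the 2841 lincRNA rows, 616 had no count in any library and 540 passed the low-count filter of the test, among them all 238 members. Most members were rare: 133 had a mean of 2 to 5 CPM, 50 of 5 to 10, 49 of 10 to 100 and only 6 reached 100. Their median was 4.25 CPM against 19.2 CPM over all 18383 genes tested. Per length, the median was 2.13 FPKM (counts scaled to gene length and library size, as deposited) against 7.18 FPKM for the 15256 protein-coding genes tested, with a median gene length of 2364.5 bases against 3841 bases.

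A few genes carried much of the signal. The 3 most abundant, Malat1, the unnamed locus MGP_C57BL6NJ_G0007440 and Meg3, held 46.3% to 54.1% of all member counts in the cKO libraries and 47.4% to 50.2% in the WT libraries. Members outside the 12 most abundant held 26.2% to 33.1%. On the length-corrected scale the order was different: the unnamed locus came first at 363 FPKM, Malat1 next at 164 FPKM, and Meg3, a much longer gene, was ranked 7 at 47.5 FPKM.

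**Figure D1:**
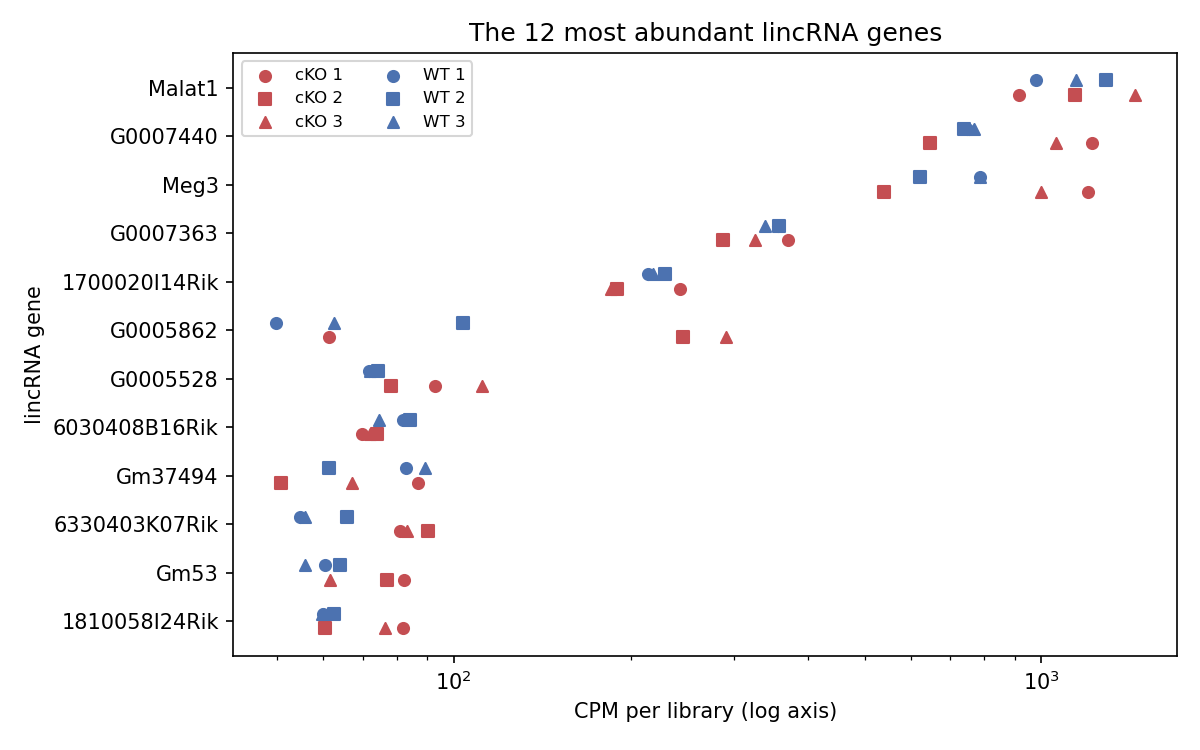
CPM per library (log axis) of the 12 lincRNA genes with the highest mean CPM; red marks are cKO libraries, blue marks WT libraries, and the mark's shape gives the replicate number (unnamed loci are shown by the last part of their identifier). The red and blue marks mix for most genes, while those of 6330403K07Rik, 6030408B16Rik and G0005528 lie apart, and 2 of 3 cKO marks of G0005862 lie far to the right of the other marks of that gene.

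Malat1, whose RNA stays in the nucleus at the speckles that store splicing factors, had 916, 1138 and 1440 CPM in the cKO libraries and 981, 1288 and 1145 CPM in the WT libraries. The groups overlapped fully, and the highest and lowest values were both cKO. The log2 fold change was 0.06 (SE 0.186, 95% interval -0.35 to 0.47, edgeR adjusted p = 0.914). Neat1, the scaffold RNA of nuclear paraspeckles and the neighbour of Malat1 on chromosome 19, had 43.5, 61.8 and 56.97 CPM in cKO against 42.2, 46.9 and 41.1 CPM in WT. Its cKO libraries 2 and 3 stood above all WT libraries and cKO library 1 among them (log2 fold change 0.35, SE 0.159, edgeR adjusted p = 0.319).

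The unnamed locus MGP_C57BL6NJ_G0007440 spans positions 153178758 to 153184004 on chromosome 7, minus strand (positions here and below are those of the files, on C57BL/6NJ). The files give it no symbol, and the list symbol H19 was not matched in them. The microRNA gene Mir675 lies inside it on the same strand, and Mir675 is known to lie within H19, an imprinted gene expressed from the maternal allele in fetal tissues. Because this locus led all members per length, the mature sequences it would carry are shown, from RefSeq (GRCm38.p6, chr7:142577112-142577133 and chr7:142577078-142577099, minus strand), with the seed (bases 2 to 8, which pair with targets) in capitals:
mmu-miR-675-5p: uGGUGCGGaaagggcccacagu
mmu-miR-675-3p: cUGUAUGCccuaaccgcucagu
The host had 1220, 646 and 1057 CPM in the cKO libraries and 746, 737 and 769 CPM in the WT libraries. The WT values were nearly equal, while cKO library 2 lay below and cKO libraries 1 and 3 above all of them. The log2 fold change was 0.40 (SE 0.193, 95% interval -0.03 to 0.82, edgeR adjusted p = 0.355). Without cKO library 2 the locus was called higher, with a log2 fold change of 0.61 and an adjusted p of 0.0257.

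Meg3, the maternally expressed RNA of the imprinted Dlk1-Dio3 region on chromosome 12, had a similar spread. It had 1202, 540 and 996 CPM in the cKO libraries and 785, 622 and 788 CPM in the WT libraries, again with cKO library 2 lowest and cKO libraries 1 and 3 highest. The log2 fold change was 0.34 (SE 0.232, edgeR adjusted p = 0.527), and it was called only without cKO library 2 (0.60, adjusted p = 0.0470). A shorter unnamed locus, MGP_C57BL6NJ_G0005528, lies inside Meg3 on the same strand, so reads of the 2 rows cannot be fully separated. This locus had 92.8, 78.2 and 112 CPM in cKO against 71.8, 74.3 and 71.97 CPM in WT, with all cKO libraries above all WT libraries, and missed the threshold (log2 fold change 0.40, SE 0.135, edgeR adjusted p = 0.166). Mirg, further along the same imprinted region, had 48.3, 29.7 and 42.3 CPM in cKO against 44.9, 26.9 and 36.8 CPM in WT, and the groups overlapped (log2 fold change 0.18, SE 0.200, edgeR adjusted p = 0.729).

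Among the 238 members, cKO library 2 was the lowest of the 6 libraries for 74 (31.1%), and for 30.7% of all genes tested. The library cKO 1 was the highest for 65 members (27.3%), against 21.5% of all genes tested. For the 55 members of 10 CPM or more the highest library exceeded the lowest by a median factor of 1.33 within WT and 1.39 within cKO. The corresponding factors over all 11058 tested genes of 10 CPM or more were 1.21 and 1.28. These genes were not matched to the members in level, so the factors do not compare genes of equal counts. In cKO, 10 of the 55 members spread over more than a factor of 2, and in WT 4 did. No such count was taken over all tested genes.

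The unnamed locus MGP_C57BL6NJ_G0005862 had the widest spread of the 12. It had 61.4, 246 and 290 CPM in the cKO libraries and 49.9, 104 and 62.5 CPM in the WT libraries. The cKO libraries 2 and 3 stood above every other library, and cKO library 1 lay among the WT libraries. Its log2 fold change of 1.496 (SE 0.461, 95% interval 0.48 to 2.51, edgeR adjusted p = 0.121) was not called, and it was called without cKO library 1 (1.93, adjusted p = 0.00107). The locus lies on chromosome 17, positions 42270858 to 42272029, plus strand, and overlaps on the same strand the pheromone gene Esp18, which had 0 counts in all libraries.

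Among the 12 most abundant only 6330403K07Rik was called by edgeR in the fit of all 6 libraries, and it is described with the called genes. The unnamed locus MGP_C57BL6NJ_G0007363 (log2 fold change -0.08, SE 0.123), 1700020I14Rik next to Oip5 (-0.07, SE 0.130), 6030408B16Rik (-0.13, SE 0.116) and Gm37494 (-0.16, SE 0.186) had edgeR adjusted p-values of 0.653 to 0.839. The gene 1810058I24Rik had a log2 fold change of 0.29 (SE 0.131, edgeR adjusted p = 0.311). Gm53, which lies 9672 bases from Hoxb9 in the Hoxb cluster, had 82.4, 77.0 and 61.7 CPM in cKO against 60.5, 64.1 and 55.9 CPM in WT (0.32, SE 0.140, edgeR adjusted p = 0.294), with 1 cKO library inside the WT range.

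Between the groups, 4 of the 238 members were called at an adjusted p under 0.05 in the quasi-likelihood test of edgeR, adjusted by Benjamini-Hochberg over all genes tested. That is 1.68% of the members, beside 3.35% of all 18383 genes tested. Called higher in cKO were 3 members (background 1.5%) and called lower 1 (background 1.84%). The level rule took Trp53cor1 and 2700046A07Rik (both higher) only through cKO, and Gm13387 (lower) only through WT. The direction of these calls is therefore partly set by that rule, which was not applied to the background of all genes tested. At an unadjusted p under 0.05 stood 29 members (12.2%), 16 higher and 13 lower, against 15.8% of all genes tested. The groups did not overlap for 37 members (15.5%), 21 higher and 16 lower, against 21.5% of all genes tested. The median log2 fold change of the members was 0.03 (quartiles -0.23 and 0.29), that of all genes tested 0.00, and 125 members had a positive value, as had 9261 of the 18383 genes tested. In the edgeR fit of all 6 libraries the shares called and at an unadjusted p under 0.05 lay under their backgrounds, as did the share without overlap. The members were also measured less precisely, with a median SE of 0.333 against 0.201 over all genes tested. Their median absolute log2 fold change was 0.255 against 0.222, a value that also grows with imprecision. Neither it nor the lower shares can tell whether the differences among the members were smaller or larger. Leaving out 1 library moved the 4 calls to 8 without cKO library 2 and 5 without cKO library 1. Without cKO library 3 or any 1 of the WT libraries there were 2. Over these fits all genes called ranged from 272 of 18922 tested to 723 of 19067.

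The width of the intervals followed the level. Of the 55 members with at least 10 CPM, 52 had a 95% interval wholly within a 2-fold change in either direction, at a median SE of 0.195. Of the 183 rarer members only 70 did, at a median SE of 0.358. The intervals of the other rarer members reached past a 2-fold change.

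**Figure D2:**
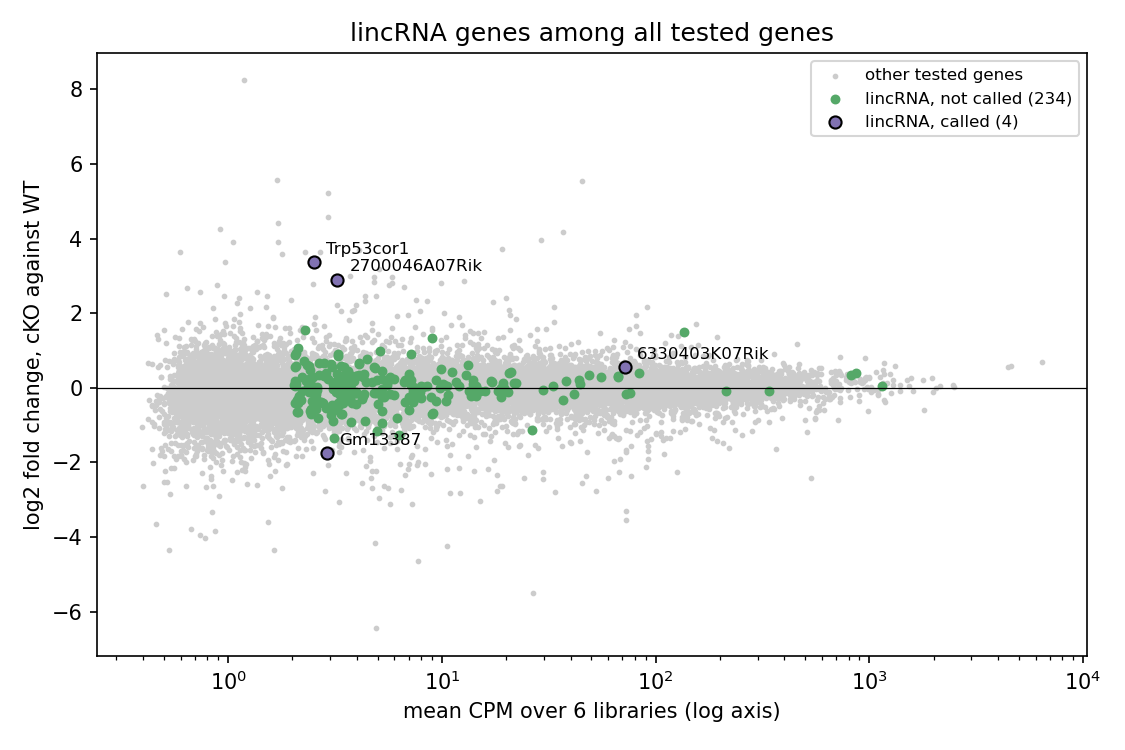
Log2 fold change (cKO against WT) of each tested gene against its mean CPM over 6 libraries (log axis): grey points are other tested genes, green points lincRNA members that were not called, purple points the 4 that were. Of the 4, 3 lie at a mean under 10 CPM, where grey points also spread widest, and 1 at 71.9 CPM.

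Trp53cor1, known as lincRNA-p21, is a p53-activated RNA gene that lies beside Cdkn1a, the gene of the cell cycle inhibitor p21. It spans positions 29693618 to 29717427 on chromosome 17, minus strand. It had 5.83, 4.79 and 3.10 CPM in the cKO libraries (88, 75 and 54 counts) and 0.967, 0.327 and 0.0601 CPM in the WT libraries (15, 5 and 1 counts). Every cKO library stood well above every WT library, and the gene passed the level rule only through cKO. The mean rose to 4.57 ± 1.38 CPM in cKO, from 0.451 ± 0.466 CPM in WT (SD, n = 3 each), a log2 fold change of 3.37 (SE 0.636, 95% interval 1.97 to 4.77, edgeR adjusted p = 0.0143). Without WT library 2 the call was lost (adjusted p = 0.0737), with a log2 fold change of 3.22. The estimate was 2.84 without WT library 3 and 4.54 without WT library 1, both called.

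Cdkn1a starts 15668 bases from the start of Trp53cor1 on the opposite strand, so the genes point away from each other. It had 76.6, 70.9 and 61.0 CPM in the cKO libraries and 5.48, 3.27 and 2.94 CPM in the WT libraries. Every cKO library stood far above every WT library, and within each group the libraries ranked the same way for both genes. The promoter of Cdkn1a holds the DNA element that p53 is known to bind, and it is shown because Trp53cor1 shares this locus. RefSeq gives it at chr17:29090888-29090987, plus strand, GRCm38.p6, and the capitals mark a 20-base match to the p53 full site with 1 mismatch, which begins 51 bases before 1 of the gene's 2 annotated starts:
Cdkn1a: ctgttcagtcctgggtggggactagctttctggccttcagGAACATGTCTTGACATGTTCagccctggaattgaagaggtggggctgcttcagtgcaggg
The search covered both strands of windows from 250 bases before to 50 after each start and allowed 1 mismatch. Such a match was found in 29 of 32851 windows of all genes (0.0883%) and in 0 of the 120 windows of the 102 members with an entry, which do not include Trp53cor1. The p53 half-site was found in 6 of the 120 member windows (5%) and in 8.36% of all windows. At the full-site share of all windows, 120 windows are too few for the 0 to be read. A match is a description of the letters only.

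2700046A07Rik was the other low gene that rose. It spans positions 64402132 to 64406303 on chromosome 18, minus strand. It had 7.22, 3.71 and 6.14 CPM in the cKO libraries (109, 58 and 107 counts) and 0.774, 1.05 and 0.481 CPM in the WT libraries (12, 16 and 8 counts). All cKO libraries lay above all WT libraries, and this gene too passed the level rule only through cKO. The mean was 5.69 ± 1.80 CPM in cKO, up from 0.767 ± 0.283 CPM in WT (log2 fold change 2.90, SE 0.417, 95% interval 1.99 to 3.82, edgeR adjusted p = 0.00277). The gene was called in all 13 alternative fits, with log2 fold changes of 2.66 to 3.22. The nearest protein-coding gene, Spink13, a protease inhibitor gene 11400 bases away on the same strand, had few counts, with 0.677 ± 0.340 CPM in cKO, 0.257 ± 0.336 CPM in WT and no call (edgeR adjusted p = 0.476). The 2 ovary markers summed to 14.1 to 16.6 CPM in cKO against 4.13 to 5.89 CPM in WT, and the erythroid markers to 97.7 to 261 CPM against 67.2 to 100.1 CPM. Their part in the rise of this gene and of Trp53cor1 was not tested.

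6330403K07Rik was the abundant gene among those called, at rank 6 of the members per length (47.9 FPKM). It lies at positions 73777125 to 73778697 on chromosome 11, minus strand, and GENCODE M21 lists the symbol as protein-coding, against lincRNA in the deposited table. It had 81.0, 90.3 and 83.4 CPM in the cKO libraries and 54.7, 66.0 and 55.8 CPM in the WT libraries. The groups did not overlap, and the step between them was small. Means were 84.9 ± 4.86 CPM for cKO and 58.8 ± 6.198 CPM for WT (log2 fold change 0.56, SE 0.132, 95% interval 0.27 to 0.85, edgeR adjusted p = 0.0445). The call was lost when cKO library 2 or 3 or any 1 of the WT libraries was left out, at adjusted p-values of 0.0504 to 0.229 and log2 fold changes of 0.49 to 0.67. Mis12, a kinetochore gene 4566 bases away on the opposite strand, had 50.4 ± 8.58 CPM in cKO against 53.04 ± 2.65 CPM in WT (edgeR adjusted p = 0.923).

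Gm13387 was the only member called lower. It spans positions 23708938 to 23736837 on chromosome 2, minus strand. It had 1.19, 1.21 and 1.49 CPM in the cKO libraries (18, 19 and 26 counts) and 4.71, 3.01 and 5.77 CPM in the WT libraries (73, 46 and 96 counts). Every cKO library lay below every WT library, and the gene passed the level rule only through WT. The mean fell from 4.49 ± 1.39 CPM in WT to 1.30 ± 0.167 in cKO (log2 fold change -1.75, SE 0.370, 95% interval -2.57 to -0.94, edgeR adjusted p = 0.0258). Without cKO library 3, WT library 1 or WT library 3 the call was lost (adjusted p = 0.0835, 0.110 and 0.175), at log2 fold changes of -1.85, -1.74 and -1.52. In the same cKO libraries 3 of the 4 Sertoli markers were called lower and Wt1 was not, and their part in the fall was not tested. Noxa1, the nearest protein-coding gene, was below the low-count filter.

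**Figure D3:**
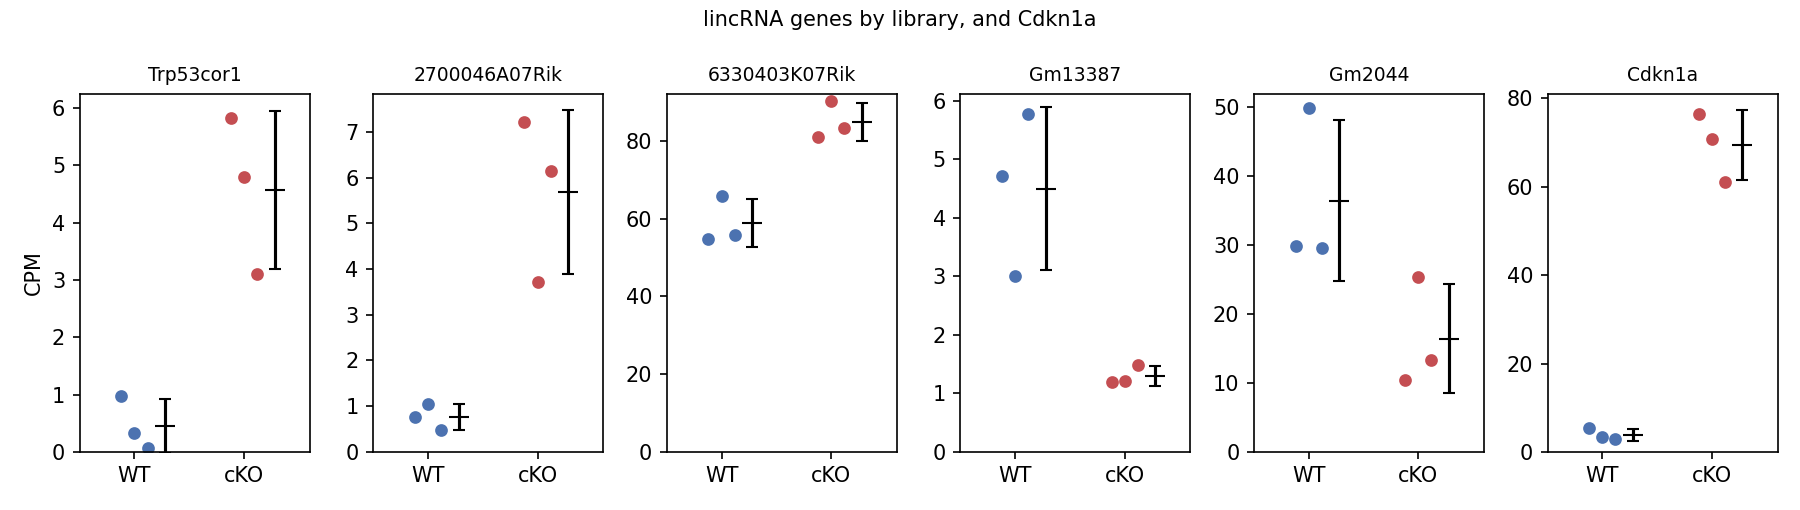
CPM per library (points) of the 4 called lincRNA genes, of Gm2044, and of Cdkn1a, the neighbour of Trp53cor1; the bar beside each group is the mean ± SD of 3 libraries, each panel has its own axis from 0, and a bar that would reach below 0 ends at the axis. The cKO and WT points do not overlap in any panel, but the genes were picked through a call or after their values were seen.

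Several members had log2 fold changes near 1 or beyond without passing the threshold. These were named after their values were seen. E330013P04Rik had 20.7, 7.61 and 10.1 CPM in cKO against 5.29, 3.66 and 6.43 CPM in WT, with no overlap (log2 fold change 1.34, SE 0.356, edgeR adjusted p = 0.0747). Rmst, a large RNA gene studied in neural differentiation, had 9.74, 6.14 and 4.53 CPM in cKO against 4.13, 2.55 and 3.84 CPM in WT, also without overlap (0.98, SE 0.335, edgeR adjusted p = 0.170). In the other direction, 2310043M15Rik had 2.92, 3.71 and 4.30 CPM in cKO against 12.9, 7.92 and 5.95 CPM in WT (-1.25, SE 0.318, edgeR adjusted p = 0.0622), and AI504432, next to the potassium channel gene Kcna3, had a log2 fold change of -1.15 (SE 0.330, edgeR adjusted p = 0.0971). Groups of both genes were apart. The DESeq2 Wald test called E330013P04Rik, 2310043M15Rik, AI504432, 1700037F24Rik and Gm2044 besides the 4 genes above, 9 members in all, at a background of 5.86% of 17704 genes. Limma-voom called the same 4 as edgeR, at a background of 3.28%.

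Hosts of small RNAs form a group that the rule did not select for. A microRNA, small nucleolar or small Cajal body RNA gene lies inside 20 members on the same strand. Of these members, 14 hold microRNA genes, 35 in all, and 8 hold small nucleolar or Cajal body RNA genes. In the deposited coordinates Mir1906-2 lies inside both Meg3 and MGP_C57BL6NJ_G0005528, while RefSeq places that symbol on chromosome X. Poly(A) libraries measure the host transcript, and the level of the mature small RNA was not measured. None of the 20 was called by edgeR or limma-voom, 1 was called by DESeq2, 3 stood at an unadjusted p under 0.05 (15%, against 15.8% of all genes tested), and their median log2 fold change was 0.15. The backgrounds of the calls are those above, 3.35%, 3.28% and 5.86% of all genes for edgeR, limma-voom and DESeq2. Mirg holds 14 of the microRNA genes and Mir17hg holds 6.

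Gm2044 holds Mir202 and Mir7686, and miR-202 is known from Sertoli cells of the fetal testis. Its mature sequences are shown because the host had the largest difference among the 20, from RefSeq (GRCm38.p6, chr7:139957732-139957752 and chr7:139957695-139957716, minus strand), seeds in capitals:
mmu-miR-202-5p: uUCCUAUGcauauacuucuuu
mmu-miR-202-3p: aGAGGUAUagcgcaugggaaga
The host had 10.5, 25.4 and 13.3 CPM in the cKO libraries and 29.8, 49.9 and 29.6 CPM in the WT libraries. All cKO libraries lay below all WT libraries, with cKO library 2 nearest to them. Means were 16.4 ± 7.92 CPM for cKO and 36.4 ± 11.7 CPM for WT (log2 fold change -1.12, SE 0.326, 95% interval -1.84 to -0.40, edgeR adjusted p = 0.103). DESeq2 called it lower (adjusted p = 0.00634), as did edgeR without cKO library 2 (-1.61, adjusted p = 0.00324). The row overlaps Gm16201 on the opposite strand, and since the strand setting of the counting is not given, reads of these genes cannot be told apart. Of the 4 Sertoli markers, Amh, Sox9 and Dhh were called lower as well while Wt1 was higher in every cKO library than in every WT library without a call, and their part was not tested.

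Mir17hg is the host of a microRNA cluster known for promoting growth and proliferation. The mature forms are shown to let their seeds be compared, since pairs within the cluster share a seed (RefSeq, GRCm38.p6, chromosome 14, plus strand, seeds in capitals):
mmu-miR-17-5p: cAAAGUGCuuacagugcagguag
mmu-miR-20a-5p: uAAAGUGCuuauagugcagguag
mmu-miR-18a-5p: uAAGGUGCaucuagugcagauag
mmu-miR-19a-3p: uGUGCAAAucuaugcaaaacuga
mmu-miR-19b-3p: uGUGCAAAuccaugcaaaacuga
mmu-miR-92a-3p: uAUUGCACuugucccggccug
The seed AAAGUGC is common to miR-17-5p and miR-20a-5p, and GUGCAAA to miR-19a-3p and miR-19b-3p, so the 11 mature forms of this host have 9 seeds. Over all host members, 61 mature forms of the 34 microRNA genes with a RefSeq entry had 58 seeds. Mir17hg had 17.2, 12.5 and 13.9 CPM in cKO against 13.2, 11.98 and 17.8 CPM in WT. The values mixed completely (log2 fold change 0.04, SE 0.206, 95% interval -0.41 to 0.50, edgeR adjusted p = 0.942).

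Small nucleolar RNAs guide chemical modification of ribosomal RNA, and their host genes of the Snhg family are widely expressed. Of 20 symbols on the list of such hosts, 16 were matched, 12 tested and 5 were members. The tested genes held 0 calls by edgeR and limma-voom and 1 by DESeq2, with 2 at an unadjusted p under 0.05 (both higher, 16.7% beside 15.8% of all genes tested, and calls at 3.35%, 3.28% and 5.86% of all genes) and a median log2 fold change of 0.17. The members were Snhg18 (-0.07, SE 0.204), Snhg20 (0.41, SE 0.207), Snhg6 (-0.07, SE 0.187), Snhg12 (0.15, SE 0.209), which holds 5 such genes, and Epb41l4aos (0.60, SE 0.364), with edgeR adjusted p-values of 0.381 to 0.914. Epb41l4aos had 9.67, 24.99 and 12.8 CPM in cKO against 9.86, 14.9 and 7.33 CPM in WT, with cKO library 2 above all others and the rest mixed.

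The other lists were too small for these counts to be read against 3.35% of all genes called and 15.8% at an unadjusted p under 0.05. On the imprinted list 7 genes were tested, among them the protein-coding Mcts2. Their calls numbered 0 with edgeR, DESeq2 and limma-voom (1 had an unadjusted p under 0.05, median log2 fold change 0.18). The members on this list were Meg3 and Mirg. For the X inactivation list, 3 genes were tested with 0 called by these tools and 0 at an unadjusted p under 0.05. Its members were Jpx (-0.23, SE 0.267, edgeR adjusted p = 0.734) and Ftx (0.14, SE 0.177, edgeR adjusted p = 0.757), both activators of the Xist locus. The microRNA host list had 5 tested genes and the list of nuclear body and chromatin RNAs had 5, and each had 0 called by the same tools and 0 at an unadjusted p under 0.05. Of 4 tested genes linked to p53, Trp53cor1 alone was called, higher, by all these tools, and the list median was 0.18.

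Most members lie close to a protein-coding gene. The nearest one overlapped 68 members, lay within 5 kb of a further 83, at 5 to 50 kb for 67 and beyond that for 20, with a median distance of 1329.5 bases. For 41 members the neighbour started within 2 kb in the opposite direction, an arrangement in which both genes can share a promoter region. No test by edgeR, DESeq2 or limma-voom called any of these 41 members, beside backgrounds of 3.35%, 5.86% and 3.28%. An unadjusted p under 0.05 was reached by 2 of them (4.88%, beside 15.8% of all genes tested). Their log2 fold changes ran from -0.81 to 0.78 with a median of 0.04. Of their 40 tested neighbours, 0 were called by edgeR or limma-voom and 2 by DESeq2, at the same backgrounds. Among these neighbours 10 had an unadjusted p under 0.05 (25%, beside the same 15.8%), 7 of them higher. Members' promoter windows had a median of 57.5% GC and 13.5 CpG dinucleotides, between all windows of the table (52.7% and 7) and those of tested protein-coding genes (60% and 19).

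The nearest coding gene was tested for 218 members, and 11 of these pairs had a called neighbour, 7 higher and 4 lower (5.05%, beside 3.35% of all genes tested). Where the neighbour was higher, 5 of 7 members had a positive log2 fold change, with a median of 0.41 and 1 called, Trp53cor1. Where the neighbour was lower, 1 of 4 was positive, with a median of -0.35. Across the 218 pairs Pearson's r of the log2 fold changes was 0.35 and Spearman's rho 0.21. Without the Trp53cor1 pair r was 0.19 over 217 pairs. The pairs share libraries, some share a neighbour (209 distinct genes), and overlapping genes can share reads, so these values are a description.

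Among the pairs, 1700037F24Rik lies within Lemd1 on the opposite strand. It had 4.70, 2.81 and 2.70 CPM in cKO against 1.10, 1.77 and 0.661 CPM in WT, a log2 fold change of 1.55 (edgeR adjusted p = 0.105, SE 0.456). This gene passed the level rule only through cKO, so that a higher value in cKO is partly set by that rule. Lemd1, a gene of the LEM domain family, was called higher (1.01, edgeR adjusted p = 0.0274). Gm26669 lies opposite Zfp36l1, an mRNA decay factor gene that was called higher (0.68, edgeR adjusted p = 0.0307), and had a log2 fold change of 0.92 (SE 0.335, edgeR adjusted p = 0.202). Reads of these overlapping opposite genes cannot be told apart without the strand setting. Lncenc1 had a log2 fold change of -0.90 (SE 0.352, edgeR adjusted p = 0.236), and Enc1, 207534 bases away, was called lower (-0.78, edgeR adjusted p = 0.0127). For these 3 pairs both genes had the same sign.

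Further pairs with a called neighbour differed in sign or in size. Gm43270 lies 40334 bases from Nkx6-1, a homeobox gene that had 3.45, 2.56 and 4.02 CPM in cKO, only 0, 0.0654 and 0.120 CPM in WT, and was called higher (edgeR adjusted p = 0.00089). Gm43270 itself had 1.26, 2.24 and 1.72 CPM in cKO against 1.16, 1.77 and 4.14 CPM in WT, which overlapped (edgeR adjusted p = 0.757, log2 fold change -0.41, SE 0.513). The sign rested on WT library 3, without which the value was 0.28. Gm9530 had a log2 fold change of -0.71 (SE 0.307, edgeR adjusted p = 0.291) beside Ier5, which was called higher (0.81, edgeR adjusted p = 0.0301). Hoxb9 was called higher (1.36, edgeR adjusted p = 0.0308) next to Gm53, whose own value of 0.32 had the same sign and was not called.

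**Figure D4:**
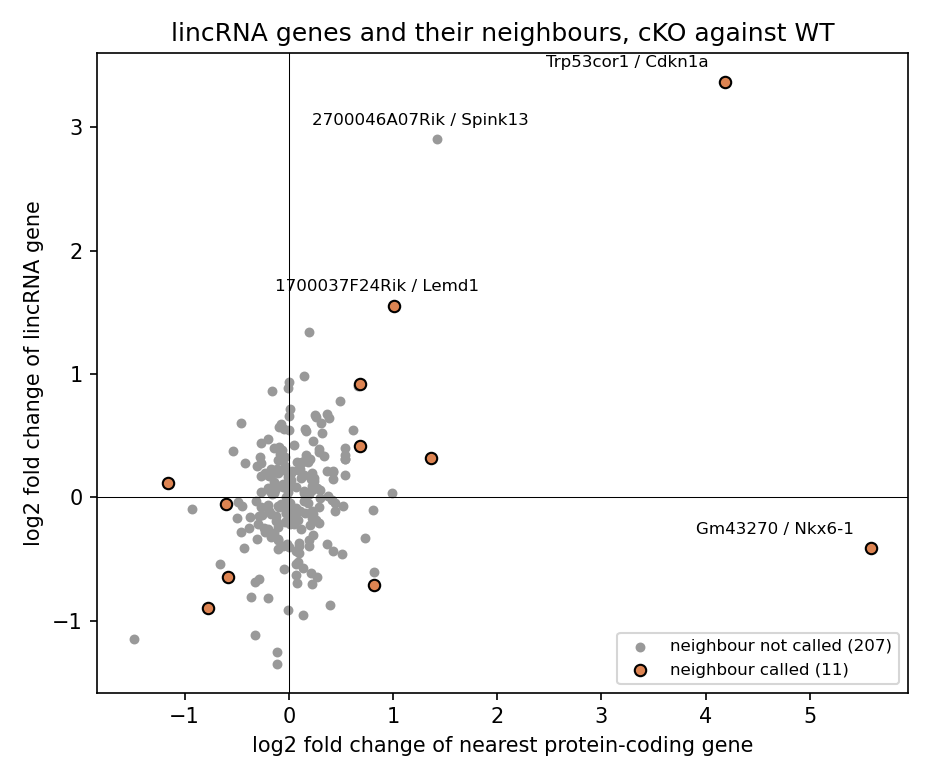
Log2 fold change (cKO against WT) of each lincRNA member against that of its nearest protein-coding gene, for the 218 pairs in which the neighbour was tested; orange points mark the 11 pairs with a called neighbour, grey points the other 207. Trp53cor1 with Cdkn1a lies alone at the upper right, and Gm43270 with Nkx6-1 lies far right at a lincRNA value of -0.41.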

How the data were processed

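Polyadenylated RNA of whole testes (embryonic day 16.5, 3 cKO and 3 WT samples) was sequenced on an Illumina NovaSeq, per the labels' protocols. The submitters' processing notes name HISAT2 2.0.5 and GRCm38. The counting tool, its strand setting and the annotation release are each not given in the sources used here. Identifiers and coordinates in the deposited tables are those of the C57BL/6NJ annotation and were not converted. The deposited counts are whole numbers per gene, not normalised, and the deposited FPKM values of the authors were used only to compare levels between genes.

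CPM is the count divided by the library's column sum, times 1e6. All genes were fitted together in R 4.3.3 with edgeR 4.0.16 (filterByExpr, TMM, glmQLFit, glmQLFTest, no covariate, common biological coefficient of variation 19.7%), with Benjamini-Hochberg adjustment over 18383 genes and a threshold of 0.05. The SE was derived as the absolute log2 fold change divided by the square root of the F statistic of the edgeR test. The 95% interval uses this SE and the t distribution with the degrees of freedom of the same fit. Alternatives were DESeq2 size factors, library totals, limma-voom (limma 3.58.1), the Wald test of DESeq2 1.42.0, other low-count filters, a replicate block and leaving out each library. Simulated data mimicked cKO against WT in depth and spread, with 200 of 18383 genes changed. The low-count filter was then applied again and kept 17898 genes. Among the changed genes kept, the procedure recovered 57.0% of changes of 1 and 90% of changes of 2 on the log2 scale, with 10 false calls among 144. The changed genes were drawn at random from all genes passing the filter, with a median of 19.2 CPM against 4.25 CPM for the members. These rates therefore do not give the recovery of changes in lincRNA genes. Replicates of a group differed beyond sampling noise (13.5 to 41.7 in chi-square per degree of freedom), so each counted as 1.

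Members and gene lists were chosen with earlier results of these data known. Named genes are the 12 most abundant members, all called members with their nearest protein-coding gene, members on 6 lists, and the 3 genes on each side of the threshold. Others were chosen after their values were seen: Gm2044, Haglr, Rmst, Lockd, Lncenc1, E330013P04Rik, 2310043M15Rik, Gm2670, AI504432, 1700037F24Rik, Gm26669, Gm9530, Gm26578, Gm44514, Gm28933, MGP_C57BL6NJ_G0005528's place within Meg3, and neighbours of uncalled members. Of the markers, Hbb-bt and Cyp21a1 were not matched. Promoter and microRNA sequences come from RefSeq tables for GRCm38.p6, matched by symbol.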

Additional observations from a re-analysis of the deposited data

How the results depend on the processing

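Of 238 lincRNA genes, 4 were called (3 higher, 1 lower), and the same 4 under DESeq2 size factors, library totals, limma-voom and a mean of at least 1 CPM. The DESeq2 Wald test called 9 (5 higher, 4 lower), no low-count filter 12 (7 higher, 5 lower) and the replicate block 7 (5 higher, 2 lower), each including those 4. All genes called went from 615 of 18383 tested to 1037 of 17704, 1264 of 31962 and 696 of 18383. Only without the low-count filter was the share called larger among the members than among all genes tested. That fit tested every row with 1 count or more, while each member had a mean of at least 2 CPM, so these shares are not comparable. The replicate numbers share only a number: deviations of same-numbered libraries correlated at -0.004, 0.20 and 0.03, and not every library correlated best with its own number. Leaving out 1 library gave 2 to 8 calls (1 to 6 higher, 0 to 2 lower). There were 8 without cKO replicate 2, 5 without cKO replicate 1, and 2 without any 1 of the other 4. All genes called ranged from 272 of 18922 tested (without WT replicate 3) to 723 of 19067 (without cKO replicate 2). The cause of these shifts was not tested. With a minimum of 1 CPM, 384 lincRNA genes count as expressed, with 5 CPM 105, and on TMM-scaled totals the number is again 238. Of 559 single-gene values under alternatives, 509 kept direction and side of the threshold, 9 lost the call, 22 gained it and 19 of 11 genes changed sign. A530083I20Rik was -0.0338 under limma-voom, and the other changes of sign came from leaving out 1 library, in genes with a small value except Gm43270 (-0.41, and 0.28 without WT replicate 3): Malat1 -0.11 to 0.22, 1700020I14Rik -0.19 to 0.0053, Snhg18 -0.31 to 0.14, Snhg6 -0.21 to 0.0454, Mir17hg -0.0787 to 0.24, Snhg12 -0.0003 to 0.334, Miat -0.25 to 0.30, Gm43270 -0.75 to 0.28, A530083I20Rik -0.37 to 0.37, Lockd -0.22 to 0.30, Haglr -0.0917 to 0.27.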

Other observations

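Naming and class differ between annotations for part of the expressed lincRNA genes. Of the 238, 95 have a Gm symbol, 84 a Rik symbol, 32 another symbol and 27 none. In GENCODE M21, 204 were matched by symbol: 156 are lincRNA there too, 24 antisense, 10 processed transcripts, 9 bidirectional promoter RNAs, 4 protein-coding (6330403K07Rik, 6030408B16Rik, Gm11549 and Kantr) and 1 sense intronic. Another gene on either strand overlaps 115 of the 238 in the deposited coordinates, so these rows are not all strictly intergenic. Chromosome 5 carries 25 of them, chromosome 7 carries 19 and the X chromosome 5.

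Some lincRNA genes lie beside well-known regulators. They were picked after their values were seen. Gm2670 overlaps Wnt5a, a Wnt ligand gene, on the opposite strand, and had 11.7, 8.57 and 14.6 CPM in cKO against 8.90, 7.72 and 8.17 CPM in WT, with cKO library 2 inside the WT range (log2 fold change 0.52, SE 0.226, edgeR adjusted p = 0.295). Wnt5a had a log2 fold change of 0.32 (edgeR adjusted p = 0.333), and reads of the overlapping genes cannot be told apart. Haglr, which lies opposite Hoxd3 in the Hoxd cluster, had 9.21, 5.24 and 7.57 CPM in cKO against 7.61, 6.81 and 6.67 CPM in WT (0.09, SE 0.250, edgeR adjusted p = 0.905). Lockd lies 4816 bases from Cdkn1b, the gene of the cell cycle inhibitor p27, on the same strand. It had a log2 fold change of 0.06 (SE 0.275, edgeR adjusted p = 0.939) and Cdkn1b one of -0.13 (edgeR adjusted p = 0.713), while Trp53cor1, beside the related inhibitor gene Cdkn1a, was called.

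Some lincRNA genes besides MGP_C57BL6NJ_G0007440 were nearly level in WT and uneven in cKO. Gm44514, which passed the level rule only through WT, had 4.32, 4.71 and 4.57 CPM in WT against 2.12, 0.256 and 2.87 CPM in cKO (-1.35, SE 0.568, edgeR adjusted p = 0.275), and Gm28933, near Foxn3, had 43.4, 40.3 and 41.1 CPM in WT against 43.2, 19.3 and 34.8 CPM in cKO (-0.34, SE 0.224, edgeR adjusted p = 0.518). The lowest value of both came from cKO library 2. By contrast, Gm26578 was uneven in both groups, with 9.34, 6.07 and 12.4 CPM in cKO against 6.25, 5.04 and 3.90 CPM in WT (0.90, SE 0.296, edgeR adjusted p = 0.151). It was called without cKO library 2 (1.12, edgeR adjusted p = 0.0390).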
